A study of Mus musculus with 126 samples.

Results

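Linker histone H1 genes were examined in mouse embryonic stem cells with and without DNA methyltransferases and with and without a histone deacetylase inhibitor. Members were taken by symbol: Hist1h1a, Hist1h1b, Hist1h1c, Hist1h1d, Hist1h1e, Hist1h1t, H1f0 and H1fx, which are 8 of the 23420 genes in the count table. All 8 passed the filter on low counts, which kept 15822 genes. RNA-seq libraries made from rRNA-depleted total RNA, 8 of the 126 samples of the series, were used, and the others were not analysed here. The J1 cells used were kept on gelatin in medium with fetal bovine serum and the cytokine LIF. They were either wild type or TKO, a triple knockout line (Dnmt1-/-, Dnmt3a-/-, Dnmt3b-/-) that lacks the maintenance and both de novo DNA methyltransferases. Each genotype received trichostatin A (TSA, 5 ng/µl), an inhibitor of class I and class II histone deacetylases, or the solvent DMSO (0.0033%), for 36 h. The 4 groups of 2 libraries are called WT DMSO, WT TSA, TKO DMSO and TKO TSA, where WT stands for wild type. Nothing in the labels says that the libraries of a group came from separate cultures or that several knockout clones were used, so p-values measure the spread between these libraries, which may be technical.

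Linker histones bind the nucleosome where DNA enters and leaves it and help chromatin to fold. The replication-dependent genes Hist1h1a to Hist1h1e lie in the large histone cluster and are transcribed mainly in S phase into mRNAs that end in a stem-loop in place of a poly(A) tail. The replacement genes H1f0 and H1fx lie outside the cluster and give polyadenylated mRNAs that do not depend on DNA replication. H1f0 is known for its rise in cells that stop dividing or differentiate, and for its response to deacetylase inhibitors. Hist1h1t lies in the cluster but encodes the linker histone of spermatocytes. Depletion of rRNA, unlike selection of poly(A) tails, keeps both kinds of mRNA in the library.

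The 150 bases before the start of each member are shown to compare short promoter elements. Each replication-dependent gene held some of the elements marked here, and neither replacement gene held any in the 250 bases searched. All 8 members were matched by gene ID to RefSeq (build GRCm38.p6, the same assembly as mm10), where they carry the newer symbols H1f1, H1f5, H1f2, H1f3, H1f4, H1f0, H1f10 and H1f6 in the order printed. Capitals mark matches on the gene's strand to the H1 box (AAACACA), the CCAAT box (CCAAT) and the TATA box (TATAAA).
Hist1h1a, chr13:23763518-23763667 (+): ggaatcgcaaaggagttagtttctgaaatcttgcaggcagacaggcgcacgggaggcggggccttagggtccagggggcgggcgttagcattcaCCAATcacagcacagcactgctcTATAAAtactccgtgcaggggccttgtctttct
Hist1h1b, chr13:21780626-21780775 (-): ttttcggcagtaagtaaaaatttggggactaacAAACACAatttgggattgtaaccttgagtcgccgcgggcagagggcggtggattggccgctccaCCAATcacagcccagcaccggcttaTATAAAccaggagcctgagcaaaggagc
Hist1h1c, chr13:23738657-23738806 (+): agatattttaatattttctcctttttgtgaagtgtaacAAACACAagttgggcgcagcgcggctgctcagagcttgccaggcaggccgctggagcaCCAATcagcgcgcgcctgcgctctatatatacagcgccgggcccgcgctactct
Hist1h1d, chr13:23554882-23555031 (+): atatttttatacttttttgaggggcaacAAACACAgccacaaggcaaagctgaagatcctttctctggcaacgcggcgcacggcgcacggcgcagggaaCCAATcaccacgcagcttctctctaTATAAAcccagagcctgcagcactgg
Hist1h1e, chr13:23622559-23622708 (-): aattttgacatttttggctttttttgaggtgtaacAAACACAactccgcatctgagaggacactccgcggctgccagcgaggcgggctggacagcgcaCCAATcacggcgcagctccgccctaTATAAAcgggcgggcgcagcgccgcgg
H1f0, chr15:79028062-79028211 (+): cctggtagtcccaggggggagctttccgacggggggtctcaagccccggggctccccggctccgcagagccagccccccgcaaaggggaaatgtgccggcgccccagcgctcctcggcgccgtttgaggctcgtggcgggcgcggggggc
H1fx, chr6:87981483-87981632 (-): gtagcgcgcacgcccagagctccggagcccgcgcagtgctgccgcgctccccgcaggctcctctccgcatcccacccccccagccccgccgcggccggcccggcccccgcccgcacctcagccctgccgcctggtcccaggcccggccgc
Hist1h1t, chr13:23695661-23695810 (+): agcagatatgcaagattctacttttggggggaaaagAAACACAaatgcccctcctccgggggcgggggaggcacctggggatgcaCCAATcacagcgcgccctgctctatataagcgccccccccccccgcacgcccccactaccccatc

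Motifs were searched on both strands of the 250 bases before each start. The H1 box, an element long described in linker histone promoters, was found in 5 of the 8 members (Hist1h1b, Hist1h1c, Hist1h1d, Hist1h1e and Hist1h1t) and in 6.2% of all 32817 RefSeq promoters of that length. Its first base lay 117 bases before the start in Hist1h1b, 112 in Hist1h1c, 122 in Hist1h1d, 115 in Hist1h1e and 114 in Hist1h1t. A CCAAT box, the binding motif of the factor NF-Y, was present in all 6 members of the cluster, against 33.8% of promoters, with the match nearest the start beginning 51 to 65 bases before it. TATAAA was present in Hist1h1a, Hist1h1b, Hist1h1d and Hist1h1e, against 12.4% of promoters, with a match beginning 26 to 33 bases before the start. Hist1h1b, Hist1h1d and Hist1h1e held all 3 motifs, as did 128 promoters, or 0.39% of all. Hist1h1t, the spermatocyte gene, thus held the CCAAT box found in every replication-dependent gene and the H1 box found in most. It did not hold the letters TATAAA.

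Neither H1f0 nor H1fx held any of these motifs in the 250 bases searched, and their promoters differed in base composition too. GC content was 74.4% before H1f0 and 75.2% before H1fx, and 47.6 to 56.8% before the members of the cluster, with a median of 52.4% over all promoters. H1fx had 30 CpG sites in 250 bases and H1f0 had 24, against 10 to 19 in the cluster and a median of 6. The core of the SP1 motif, GGGCGG, was found in 5 members (Hist1h1a, Hist1h1b, Hist1h1e, H1fx and Hist1h1t) and in 32.7% of promoters. The core letters of 3 more factors that, like SP1, were profiled elsewhere in the series were found in no member: CACGTG of MAX, in 6.0% of all promoters, CCGGAAG of GABPA, in 6.9%, and GCATGCG of NRF1, in 3.0%. A match is a description of letters and was not tested as a binding site.

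**Figure D1:**
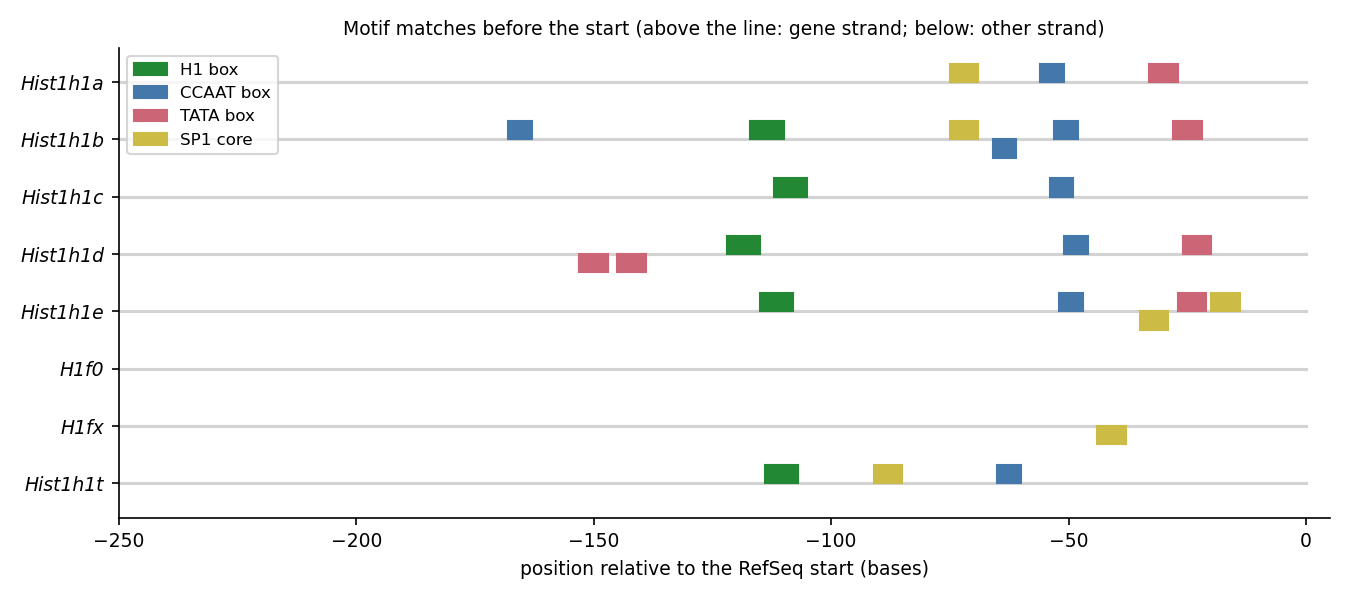
Positions of 4 motifs in the 250 bases before the RefSeq start of each linker histone gene; the x axis is distance from the start in bases, boxes above a line are matches on the gene's strand and boxes below are on the other strand. The 6 genes of the histone cluster carry a CCAAT box 51 to 65 bases before the start, 5 of them an H1 box farther upstream, and H1f0 carries none of the 4.

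Each member has a single exon in the deposited annotation (mm10). H1f0 spans chr15:79028212-79030500 on the plus strand (2289 bases) and H1fx spans chr6:87980421-87981482 on the minus strand (1062 bases). On chromosome 13, Hist1h1a spans 23763668-23764414 (747 bases), Hist1h1c 23738807-23740367 (1561 bases), Hist1h1d 23555032-23558008 (2977 bases) and Hist1h1t 23695811-23696722 (912 bases), all on the plus strand. Hist1h1b, 21779883-21780554 (672 bases), and Hist1h1e, 23620628-23622558 (1931 bases), lie on the minus strand of the same chromosome. Deposited exons of 3 members were much longer than RefSeq's, by 2.15 times for Hist1h1c, 3.84 times for Hist1h1d and 2.47 times for Hist1h1e, so levels per length depend on the annotation. Hist1h1e shared 209 exon bases (10.8% of its exon) with the core histone gene Hist1h2be on the same strand, in the stretch outside RefSeq's Hist1h1e. Genes of the cluster are similar copies, and how reads that fit several genes were counted is not given in the sources used here.

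Libraries held 13280631 to 15542527 counts, and 3 counts, taken as the limit of detection, correspond to 0.183 to 0.243 CPM (the usual count per library size, here with TMM scaling). In the TKO libraries Dnmt1, Dnmt3a and Dnmt3b fell under both treatments, for example in DMSO from 592 to 44.9 CPM for Dnmt3b and from 446 to 130.1 CPM for Dnmt1 (edgeR quasi-likelihood test, Benjamini-Hochberg adjusted p = 5.35e-08 and 1.47e-06). All 8 pluripotency markers listed were detected in every group, with Pou5f1 at 913 ± 31.8 CPM (SD, n = 2) in WT DMSO and 409 ± 67.4 CPM in WT TSA.

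The 8 linker histone genes moved in opposite directions with TSA. In wild-type cells all 5 replication-dependent genes fell and the replacement genes H1f0 and H1fx and the spermatocyte gene Hist1h1t rose, and the same directions held in TKO cells. Hist1h1d, a somatic variant, fell most on the log2 scale, and Hist1h1e fell least. Genotype moved fewer members, as it moved fewer of all tested genes (20.4% called in DMSO and 18.4% in TSA). H1f0 and Hist1h1t were higher in TKO than in wild-type cells in DMSO. No replication-dependent member was called between genotypes in either treatment. All 8 members passed an edgeR quasi-likelihood test at an adjusted p below 0.05 for TSA in wild-type cells, where 52.8% of the tested genes were called (27.0% higher, 25.9% lower). In TKO cells all 8 passed again, where 58.7% of genes were called (30.8% higher, 27.9% lower). The median log2 fold change of the 5 replication-dependent genes was -0.57 in wild-type and -0.56 in TKO cells, beside medians over all tested genes of 0.01 and 0.04. In bulk RNA, fewer cells that express a gene (such as cells in S phase) and less RNA per cell cannot be told apart.

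**Figure D2:**
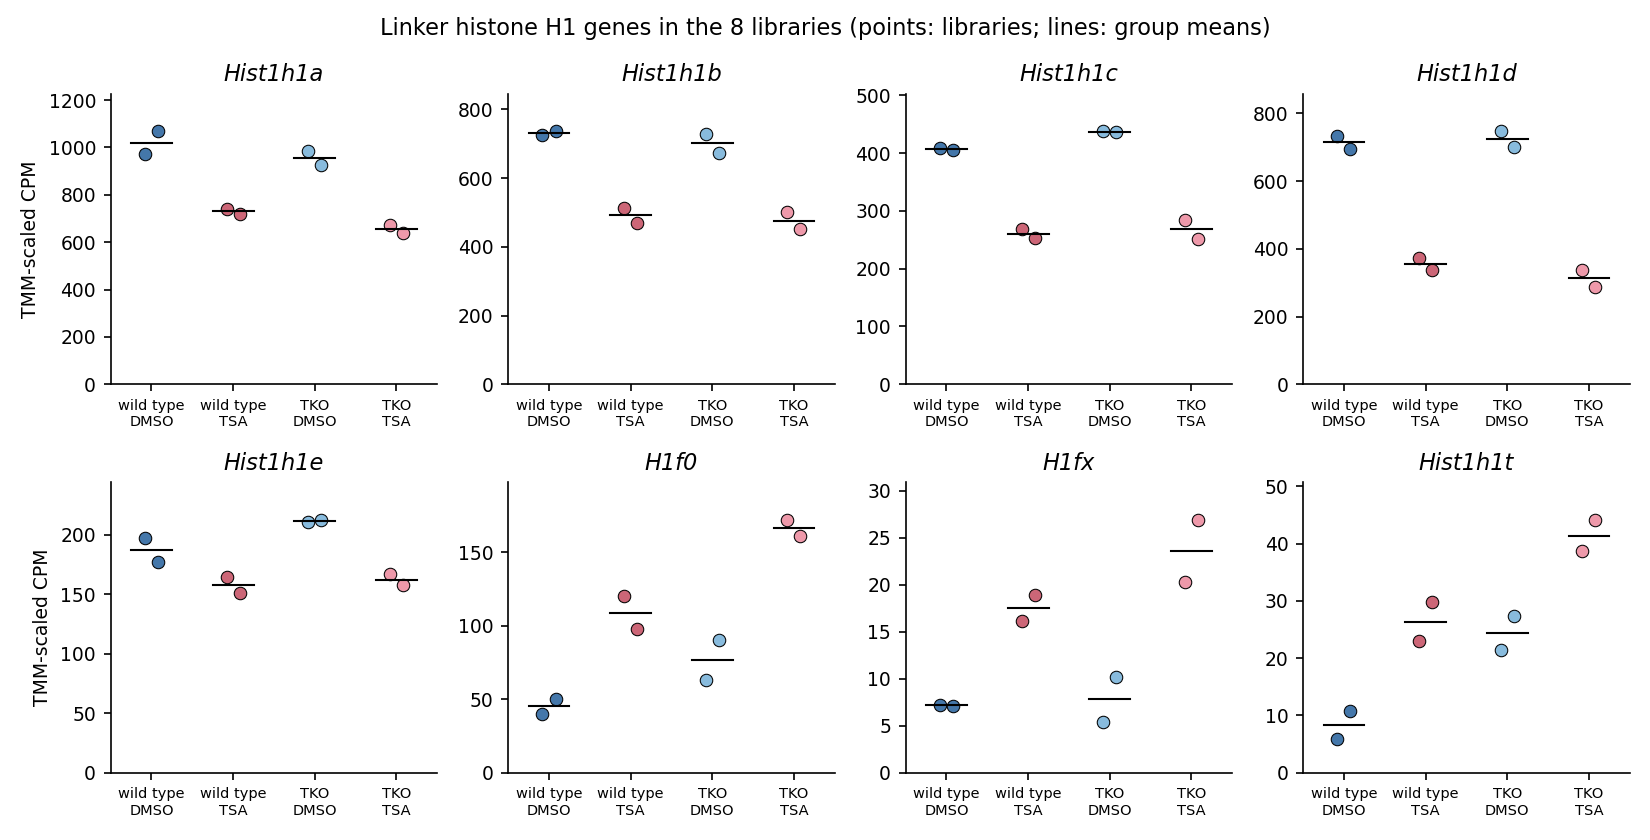
TMM-scaled CPM (y axis, from 0, with its own range in each panel) of the 8 linker histone genes in each library (points) of the 4 groups, with group means (lines, n = 2). In both genotypes the TSA points lie below the DMSO points for Hist1h1a to Hist1h1e and above them for H1f0, H1fx and Hist1h1t.

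Hist1h1a, the most abundant member, is typical of dividing cells. It was at 971 and 1068 CPM in the WT DMSO libraries and at 742 and 719.9 CPM with TSA. TKO cells had 984 and 928 CPM in DMSO and 674 and 640.4 CPM with TSA. Both treated pairs lay below every DMSO library. The log2 fold change with TSA was -0.48 ± 0.09 (SE, edgeR adjusted p = 0.00104) in wild-type and -0.54 ± 0.09 (adjusted p = 0.000354) in TKO cells.

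Hist1h1b, another gene of dividing cells, followed Hist1h1a closely. Its levels were 726 and 735 CPM in WT DMSO and 514 and 469 in WT TSA. TKO libraries had 728 and 673 CPM without TSA and 501 and 451 with it. Treated and untreated libraries did not overlap, and the genotypes overlapped within each treatment. TSA lowered it by a log2 fold change of -0.57 ± 0.09 (edgeR adjusted p = 0.000501) in wild-type and -0.56 ± 0.09 (adjusted p = 0.000417) in TKO cells. After centring each gene's log2 CPM over the 8 libraries, the root mean square difference between Hist1h1a and Hist1h1b was 0.0643, the smallest of the 28 pairs of members. Hist1h1a gave 1.34 to 1.53 counts per Hist1h1b count. The TSA and DMSO libraries of each genotype overlapped in this ratio, and both WT TSA libraries were above all TKO libraries.

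Hist1h1c encodes one of the somatic variants found in most tissues. It was at 408 and 406 CPM in WT DMSO and 268 and 253 in WT TSA. Both TKO DMSO libraries had 437 CPM, and the TKO TSA libraries 284 and 252. Again the TSA libraries lay below all DMSO libraries. Log2 fold changes with TSA were -0.64 ± 0.09 (edgeR adjusted p = 0.000195) and -0.71 ± 0.09 (adjusted p = 6.67e-05).

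Hist1h1d was at 734 and 694 CPM in WT DMSO and at 373 and 338 CPM in WT TSA. In TKO cells it had 747 and 700.5 CPM in DMSO and 338 and 286 CPM with TSA. Its level fell 2.01-fold in wild-type cells (log2 fold change -1.01 ± 0.10, edgeR adjusted p = 3.84e-05) and 2.32-fold in TKO cells (-1.21 ± 0.10, adjusted p = 6.27e-06). These log2 fold changes lay at the 5.49 and 5.69 percentiles of all tested genes.

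Hist1h1e, a further somatic variant, had the smallest change with TSA of the 5. Its levels were 197 and 177 CPM in WT DMSO and 165 and 151 in WT TSA. For TKO cells the values were 211 and 212 CPM under DMSO and 167 and 157 under TSA. TSA and DMSO libraries did not overlap, although the lower WT DMSO library stood close to the higher treated ones. In wild-type cells the log2 fold change of -0.25 ± 0.09 had an edgeR adjusted p of 0.0423, which rose to 0.695 with scaling to total counts (log2 fold change -0.04) and to 0.0802 in DESeq2. In TKO cells it was -0.38 ± 0.09 (edgeR adjusted p = 0.00444).

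Ratios within a library need no scaling between libraries, and they separated Hist1h1d from its neighbours in the cluster. Hist1h1d gave 3.72 and 3.92 counts per Hist1h1e count in WT DMSO and 2.27 and 2.24 in WT TSA. In TKO cells the ratio was 3.54 and 3.30 in DMSO and 2.03 and 1.82 with TSA. Per Hist1h1c count, Hist1h1d gave 1.80 and 1.71, then 1.39 and 1.33 in wild-type cells, and 1.71 and 1.60, then 1.19 and 1.14 in TKO cells. Hist1h1c itself fell against Hist1h1e, from 2.07 and 2.29 to 1.63 and 1.68 counts in wild-type and from 2.08 and 2.06 to 1.70 and 1.60 in TKO cells. All 3 ratios were lower in every TSA library than in every DMSO library of the same genotype. They are not independent, since any of them follows from the others. With 2 libraries in each group, such a separation can also arise by chance. No test was made of these ratios.

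H1f0, the replacement linker histone of quiescent and differentiated cells, was at 40.1 and 50.3 CPM in WT DMSO and at 120.0 and 98.1 CPM in WT TSA. In TKO cells it was at 63.4 and 90.2 CPM in DMSO and 172 and 161 CPM with TSA. The groups formed 4 separate ranges, in the order WT DMSO, TKO DMSO, WT TSA and TKO TSA. H1f0 rose 2.42-fold with TSA in wild-type cells (1.27 ± 0.17 on the log2 scale, edgeR adjusted p = 0.000149) and 2.17-fold in TKO cells (1.12 ± 0.16, adjusted p = 0.000185).

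H1fx, the most divergent somatic linker histone, was read from 79 to 428 counts per library. The library with 79 counts has an exact Poisson 95% interval of 62.5 to 98.5 counts, which covers counting error only. H1fx was at 7.21 and 7.13 CPM in WT DMSO and 16.1 and 18.9 in WT TSA. TKO libraries had 5.41 and 10.2 CPM without TSA and 20.2 and 26.9 with it. TSA libraries were above all DMSO libraries, and the TKO DMSO pair spread around the WT DMSO pair. Its log2 fold change with TSA was 1.29 ± 0.26 (edgeR adjusted p = 0.00189) in wild-type and 1.60 ± 0.25 (adjusted p = 0.000302) in TKO cells.

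Hist1h1t, which is normally made in spermatocytes, was at 5.92 and 10.8 CPM in WT DMSO (83 and 133 counts) and at 23.0 and 29.8 CPM in WT TSA. TKO cells had 21.3 and 27.4 CPM in DMSO, which overlapped with treated wild-type cells, and 38.6 and 44.1 CPM with TSA. Its rise with TSA was 3.18-fold in wild-type cells (log2 fold change 1.67 ± 0.25, edgeR adjusted p = 0.000278) and 1.70-fold in TKO cells (0.76 ± 0.22, adjusted p = 0.0111). The TKO call was lost without TKO DMSO replicate 1 (log2 fold change 0.59, adjusted p = 0.106) and without TKO TSA replicate 2 (0.66, adjusted p = 0.0635). The other germline linker histones stayed at the limit of detection: the oocyte gene H1foo had 0 to 3 counts per library, and the spermatid genes H1fnt and Hils1 had 0 to 2 and 0 to 1, too few to be tested.

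**Figure D3:**
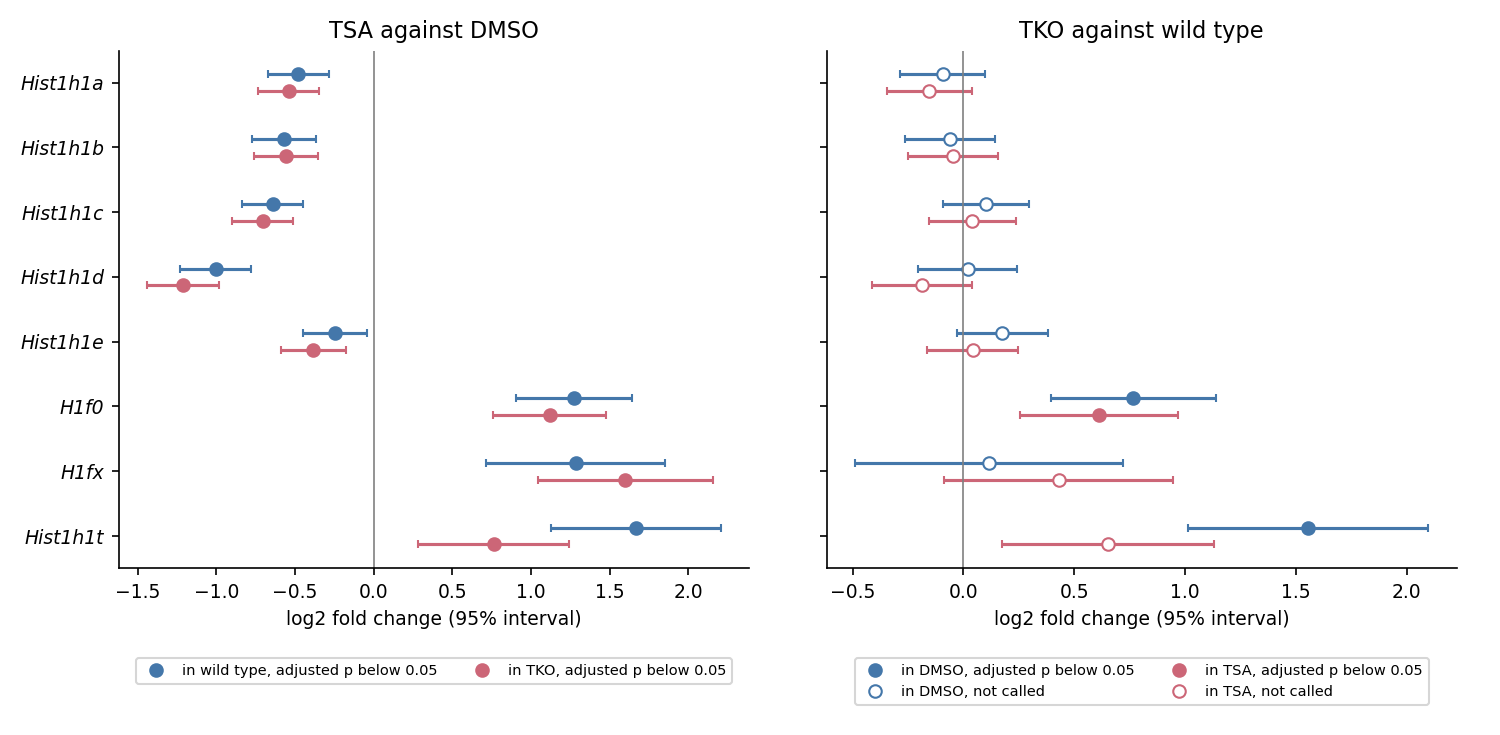
Log2 fold changes (x axis) of the 8 linker histone genes with 95% intervals from the edgeR fit on 8 libraries; left, TSA against DMSO in each genotype, right, TKO against wild type in each treatment; filled points had an adjusted p below 0.05. With TSA the 5 replication-dependent genes lie left of 0 and the other 3 right of it, while between genotypes filled points occur only for H1f0 and Hist1h1t.

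Between genotypes, H1f0 and Hist1h1t were the members that differed. In DMSO they were 2 of 8 members called, both higher in TKO, where 20.4% of tested genes were called (9.63% higher, 10.7% lower). H1f0 was 1.70-fold higher in TKO DMSO (log2 fold change 0.77 ± 0.17, edgeR adjusted p = 0.00904). That call was lost without WT DMSO replicate 1 (0.59, adjusted p = 0.0852) and without TKO DMSO replicate 2 (0.49, adjusted p = 0.103). Hist1h1t was 2.94-fold higher (1.56 ± 0.25, adjusted p = 0.00147). Log2 fold changes of the 5 replication-dependent genes ran from -0.09 for Hist1h1a to 0.18 for Hist1h1e and did not pass, and that of H1fx was 0.12, with a 95% interval of -0.49 to 0.72.

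In TSA-treated cells H1f0 was the 1 member called between genotypes, where 18.4% of genes were called (10.0% higher, 8.38% lower). It was 1.53-fold higher in TKO (log2 fold change 0.61 ± 0.16, edgeR adjusted p = 0.0234), a call lost without WT TSA replicate 2 (0.47, adjusted p = 0.126), TKO TSA replicate 1 (0.56, adjusted p = 0.0862) or TKO TSA replicate 2 (0.66, adjusted p = 0.0610). Hist1h1t was 1.57-fold higher and missed the threshold in edgeR (0.65 ± 0.22, adjusted p = 0.0589), but passed in DESeq2 (adjusted p = 0.0342). The remaining 6 had edgeR log2 fold changes of -0.19 for Hist1h1d to 0.43 for H1fx and did not pass.

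TKO TSA cells, which carry both changes, were also compared with WT DMSO cells. This comparison called 7 of 8 members, where 61.9% of genes were called (31.7% higher, 30.2% lower). H1f0 was 3.69-fold higher (log2 fold change 1.88 ± 0.17, edgeR adjusted p = 6.68e-06), Hist1h1t 4.99-fold (2.32 ± 0.24, adjusted p = 1.62e-05) and H1fx 3.28-fold (1.72 ± 0.26, adjusted p = 0.000177). Hist1h1a, Hist1h1b, Hist1h1c and Hist1h1d had log2 fold changes of -0.63, -0.62, -0.60 and -1.19 and passed. Hist1h1e, at -0.21 ± 0.09, did not (edgeR adjusted p = 0.0721).

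Whether the response to TSA differed between genotypes was tested as an interaction, the effect in TKO cells minus that in wild-type cells. No member was called by edgeR or by DESeq2, and 1.35% of tested genes were called by edgeR (0.879% higher, 0.468% lower). Hist1h1t was the 1 member with an unadjusted p below 0.05 (interaction -0.90 ± 0.33 on the log2 scale, 95% interval -1.63 to -0.18, unadjusted p = 0.0186, edgeR adjusted p = 0.228), and without WT DMSO replicate 2 it was called (-1.38, adjusted p = 0.0370). Intervals of the others still allow sizeable differences for the less abundant genes. They ran from -0.48 to 1.11 for H1fx and from -0.67 to 0.36 for H1f0, against -0.27 to 0.30 for Hist1h1b and -0.52 to 0.11 for Hist1h1d.

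Levels were compared between genes as RPKM, reads per kilobase of exon at the depth used for CPM, with TMM scaling. In WT DMSO cells the order was Hist1h1a (1364 ± 91.5, SD, n = 2), Hist1h1b (1088 ± 9.47), Hist1h1c (261 ± 1.06), Hist1h1d (239.9 ± 9.68), Hist1h1e (97.0 ± 7.41), H1f0 (19.7 ± 3.13), Hist1h1t (9.16 ± 3.77) and H1fx (6.75 ± 0.05). Neighbours were separated by more than their spread except Hist1h1t and H1fx, where the difference in means was smaller than the SD of Hist1h1t. The order of the 8 was the same in the other groups. In TKO TSA cells the lower part had closed up, with Hist1h1e at 84.0 ± 3.55, H1f0 at 72.8 ± 3.36, Hist1h1t at 45.4 ± 4.27 and H1fx at 22.2 ± 4.42. When the same counts were divided by RefSeq's lengths, Hist1h1d moved above Hist1h1c in every group. It then stood at 920.2 beside 920.6 for Hist1h1b in WT DMSO, so its rank rests on the annotation used. Reads were not recounted within RefSeq's exons.

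The balance between the replacement and replication-dependent genes shifted with TSA in both genotypes. H1f0 and H1fx together made 0.804% and 0.911% of the linker histone transcripts per deposited exon length in the WT DMSO libraries and 3.03% and 2.88% in WT TSA. In TKO cells their share was 1.06% and 1.66% in DMSO and 4.35% and 4.76% with TSA. The 4 groups did not overlap, and the 5 replication-dependent genes still made up most of the pool in every library. Group means were 0.858 ± 0.075% (SD, n = 2), 2.95 ± 0.107%, 1.36 ± 0.426% and 4.56 ± 0.288% in the order WT DMSO, WT TSA, TKO DMSO and TKO TSA. Within the pool, Hist1h1d went from 7.78 ± 0.540% to 5.50 ± 0.165% with TSA in wild-type cells and from 8.04 ± 0.081% to 5.01 ± 0.333% in TKO cells. The same counts divided by RefSeq's shorter lengths gave it 22.7 ± 1.20% and 16.8 ± 0.454% in wild-type and 23.0 ± 0.319% and 15.4 ± 0.896% in TKO cells. Reads were not recounted within RefSeq's exons, so these shares include reads outside them. Hist1h1a kept the highest share per deposited length, 44.2 ± 1.68% in WT DMSO and 42.1 ± 0.689% in TKO TSA. These shares are of mRNA and were not measured for protein.

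H1f0 was also set against the 5 replication-dependent genes without any length. It gave 1.32 and 1.63 counts per 100 of theirs in WT DMSO and 5.82 and 5.08 in WT TSA. TKO libraries gave 2.04 and 3.06 without TSA and 8.76 and 9.02 with it. Hist1h1t gave 0.195 and 0.350, 1.11 and 1.54, 0.687 and 0.930, and 1.97 and 2.47 in the same order. Between the replacement genes the ratio was less ordered: H1fx gave 8.52 to 19.3 counts per 100 H1f0 counts, and treated and untreated libraries overlapped in wild-type cells. The 8 members together took 0.290% and 0.292% of all counts in WT DMSO and 0.237% and 0.225% in WT TSA. In TKO cells the shares were 0.301% and 0.294% under DMSO and 0.228% and 0.214% under TSA.

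**Figure D4:**
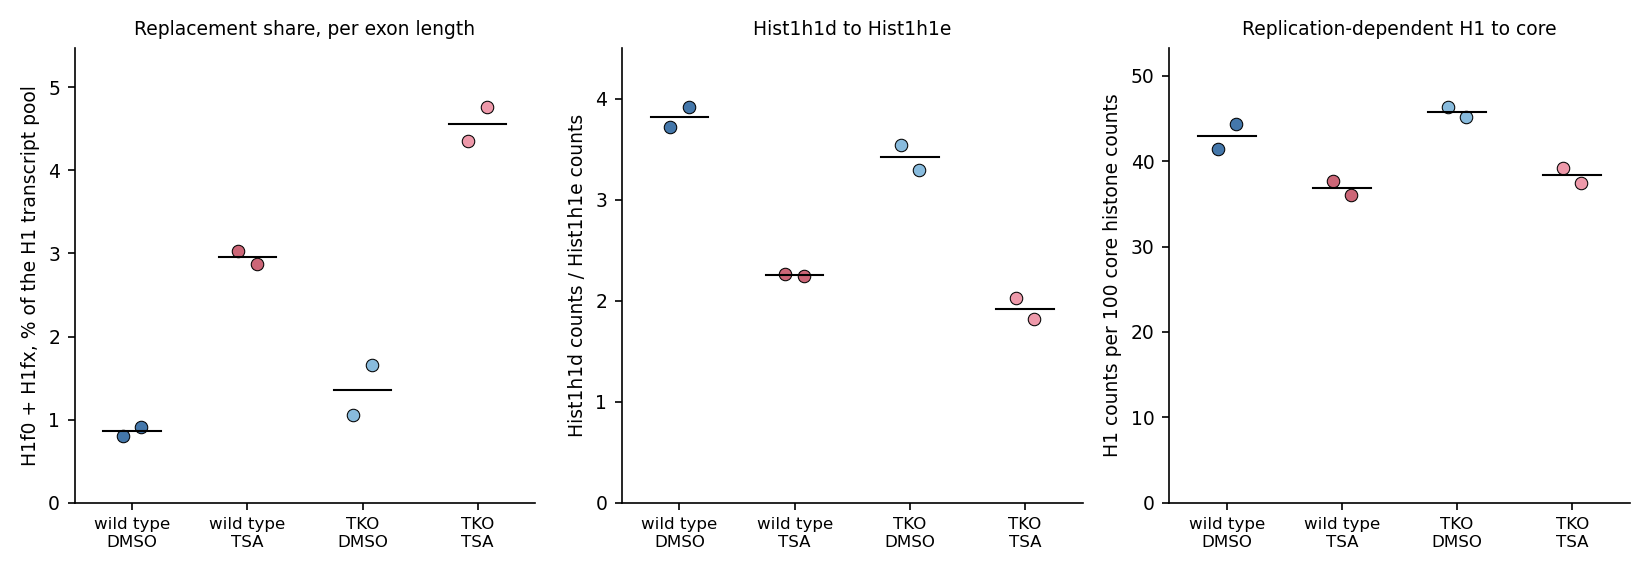
Scaling-free measures per library (points) with group means (lines, n = 2): left, H1f0 and H1fx as a percentage of the linker histone pool per exon length; middle, Hist1h1d counts per Hist1h1e count; right, counts of the 5 replication-dependent linker histone genes per 100 core histone counts. TSA libraries are higher on the left and lower in the middle and on the right than the DMSO libraries of the same genotype.

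Core histones, the 4 proteins wound by DNA in the nucleosome, also have replication-dependent genes. Those listed were taken by symbol from Hist1, the cluster of the linker histone genes, and from Hist2, Hist3 and Hist4. Of 55 tested core histone genes 34 fell and 4 rose with TSA in wild-type cells (median log2 fold change -0.54), and 37 fell and 5 rose in TKO cells (median -0.56). For this and the following lists the shares of all tested genes called with TSA were 25.9% lower and 27.0% higher in wild-type, and 27.9% lower and 30.8% higher in TKO cells. Hist2h2bb fell from 935 ± 10.7 to 634 ± 35.8 CPM (log2 fold change -0.56, edgeR adjusted p = 0.000661) in wild-type cells, and Hist1h4f from 253 ± 34.0 to 174 ± 16.3 CPM (-0.54, adjusted p = 0.0112). Hist3h2a, which rose in TKO cells (0.42, adjusted p = 0.00456), was among the exceptions. Of the 62 core histone genes listed, 7, 4, 5 and 6 had no counts in WT DMSO, WT TSA, TKO DMSO and TKO TSA. How reads that fit several copies were counted is not given, so ratios to core histones are of assigned counts. The 5 linker histone genes gave 41.5 and 44.4 counts per 100 core histone counts in WT DMSO and 37.7 and 36.0 in WT TSA. TKO cells gave 46.3 and 45.2 under DMSO and 39.2 and 37.5 under TSA. The ratio was lower in every TSA library than in every DMSO library of its genotype. It was not tested, and the medians of the 2 lists with TSA were close (-0.57 and -0.54 in wild-type, both -0.56 in TKO cells).

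Genes of S phase, when replication-dependent histone genes are active, also fell with TSA. Of 22 tested, 15 fell and 2 rose in wild-type cells (median log2 fold change -0.52), and the counts were 15 and 2 in TKO cells (median -0.64). Subunits of the replicative helicase led by level: Mcm5 fell from 1187 ± 98.4 to 696 ± 54.0 CPM (-0.77, edgeR adjusted p = 0.00011) and Mcm2 from 521 ± 28.4 to 292 ± 27.8 CPM (-0.84, adjusted p = 5.98e-05) in wild-type cells. Summed over the list, S phase genes were at 6273 to 6422 CPM in WT DMSO and 4400.2 to 4619 in WT TSA. Sums in TKO cells were 6305 to 6567 CPM under DMSO and 4464 to 4512 under TSA. The part of these genes' change in the linker histone result was not tested. Of 7 inhibitors of cyclin-dependent kinases, 4 rose and 1 fell in wild-type cells (median 0.77) and 5 rose and 1 fell in TKO cells (median 1.04). Cdkn1a, the inhibitor p21, rose from 22.05 ± 3.44 to 37.6 ± 1.12 CPM in wild-type cells (0.77, adjusted p = 0.000908), while Cdkn1b fell from 54.7 ± 7.87 to 15.1 ± 3.73 CPM (-1.85, adjusted p = 3.69e-05).

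Of 14 tested factors that transcribe or process histone pre-mRNA, 5 fell and none rose with TSA in wild-type cells, where 52.8% of all genes were called in either direction (median log2 fold change -0.19, which turned to 0.01 with scaling to total counts, where 3 fell and 1 rose). In TKO cells 5 fell and 2 rose (median -0.19). Cpsf2, a subunit of the histone cleavage complex, fell from 269.7 ± 5.62 to 166 ± 6.46 CPM in wild-type cells (-0.70, edgeR adjusted p = 0.000115) and Cstf2 from 155 ± 1.42 to 92.8 ± 1.36 CPM (-0.74, adjusted p = 9.92e-05). Slbp, which binds the stem-loop of histone mRNAs, rose in TKO cells from 163 ± 4.24 to 208 ± 19.8 CPM (0.35, adjusted p = 0.0068) and was at 210.1 ± 4.65 and 202 ± 3.66 CPM in wild-type cells.

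Genes for proteins that carry linker histones or compete with them for nucleosomes mostly fell in RNA level. Of 14 tested, 9 fell and 1 rose with TSA in wild-type cells (median log2 fold change -0.63), and 9 fell and 3 rose in TKO cells (median -0.65). Nasp, a histone chaperone that binds linker histones, fell from 853 ± 35.01 to 474 ± 18.1 CPM in wild-type cells (-0.85, edgeR adjusted p = 3.61e-05) and from 757 ± 28.2 to 404 ± 11.3 CPM in TKO cells (-0.91, adjusted p = 1.16e-05). Parp1, which competes with H1 at promoters, fell from 849 ± 25.8 to 543 ± 20.6 CPM in wild-type cells (-0.64, adjusted p = 0.000229). Npm1 and Set, both chaperones able to bind H1, had log2 fold changes of -0.65 (adjusted p = 0.00146) and -0.65 (adjusted p = 0.00155) in wild-type cells.

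**Figure D5:**
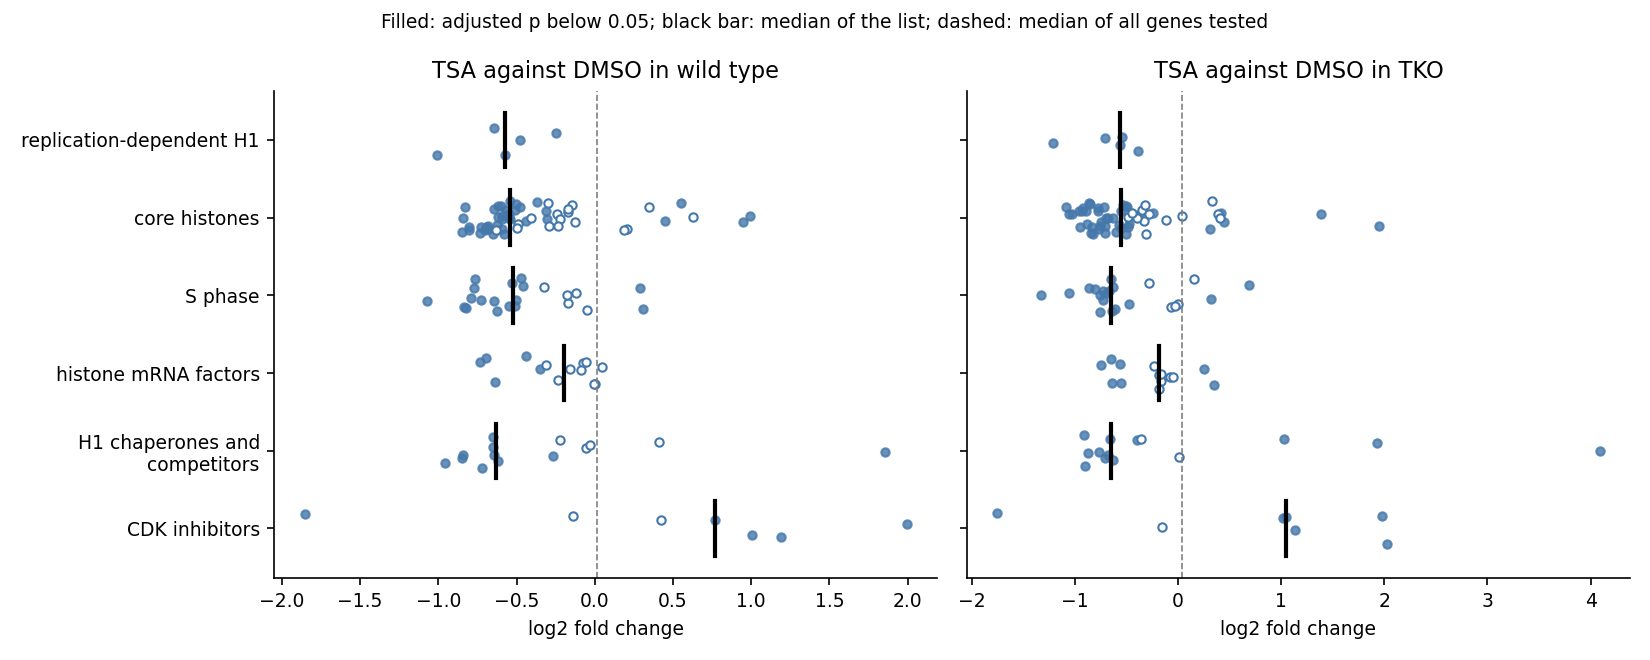
Log2 fold change with TSA (x axis, one panel per genotype with its own range) of each tested gene (points) in 6 lists related to linker histones; filled points had an edgeR adjusted p below 0.05, black bars are list medians and dashed lines the medians of all tested genes (0.01 and 0.04). Linker histone, core histone, S phase and chaperone lists have medians between -0.65 and -0.52, and the inhibitors of cyclin-dependent kinases have medians of 0.77 and 1.04.

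Markers of cell identity moved with TSA and between genotypes. In DMSO, 5 of 8 pluripotency markers were higher in TKO than in wild-type cells and none was lower. Of 5 trophoblast markers 2 were lower in TKO DMSO and none was higher, where 20.4% of all tested genes were called in either direction. Of 8 pluripotency markers, 7 fell and none rose with TSA in each genotype (median log2 fold change -1.05 in wild-type and -1.16 in TKO cells), and their summed level went from 2446 to 2700.4 down to 1296 to 1473 CPM in wild-type and from 3233 to 3592 down to 1513 to 1792 CPM in TKO cells. Of 5 trophoblast markers, 4 rose in wild-type and 5 in TKO cells, with sums of 49.3 to 49.7, 166.8 to 182, 39.7 to 56.9 and 250.8 to 257 CPM in WT DMSO, WT TSA, TKO DMSO and TKO TSA. Of 6 germ cell markers, 4 rose and none fell with TSA in wild-type cells, 4 rose and 1 fell in TKO cells, and 2 were higher in TKO than in WT DMSO cells. Their sums were 62.7 to 91.0, 135 to 184, 196 to 221 and 375 to 384 CPM in the same order. Dazl, a germ cell RNA-binding protein, was at 10.4 ± 2.76, 42.0 ± 23.0, 141 ± 9.77 and 263 ± 6.15 CPM. Its level was lowest in WT DMSO and highest in TKO TSA, as for Hist1h1t, whose WT TSA and TKO DMSO libraries overlapped. The part of these markers in the linker histone results was not tested.

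Other lineages were mixed. Of 14 tested fibroblast or mesenchymal markers, 6 rose and 4 fell with TSA in wild-type cells and 10 rose and 1 fell in TKO cells. Between genotypes, 7 were lower and 1 was higher in TKO in DMSO (median log2 fold change -1.25). Under TSA 6 were lower and 1 was higher in TKO (median -0.66). Of all tested genes 10.7% were lower in TKO in DMSO and 8.38% in TSA. Summed levels of these markers were 949 to 1263, 754 to 1025, 675 to 679.9 and 465 to 567 CPM in the 4 groups, with Dcn at 0 in TKO TSA. Of 7 extraembryonic endoderm markers, 1 rose in wild-type and 2 in TKO cells with TSA. In TKO DMSO 4 were higher than in WT DMSO and none was lower, where 9.63% of all tested genes were higher. Sums were 12.8 to 14.6, 17.1 to 19.6, 26.1 to 28.9 and 36.4 to 40.9 CPM, with Ttr at 0 in both wild-type groups. Of 5 neural markers, 4 fell and 1 rose in wild-type and 3 fell and 1 rose in TKO cells, with sums of 334 to 417, 173 to 207, 295 to 323 and 158 to 166 CPM.

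Genes with the pattern most like a member over the 8 libraries were sought among the 10024 tested genes that averaged 10 CPM or more, by the root mean square difference of centred log2 CPM. For H1f0 they were Lix1l (0.139), Urgcp (0.144) and Creg1 (0.166). Urgcp was at 24.8 ± 1.26, 65.7 ± 3.45, 43.7 ± 5.99 and 89.3 ± 7.20 CPM in WT DMSO, WT TSA, TKO DMSO and TKO TSA, the same order of groups as H1f0. For H1fx the nearest were Sh3kbp1 (0.159), Trim68 (0.162) and Txnip (0.188), none of which stayed among the nearest 3 when the minimum was 1 CPM. For Hist1h1c the values were smaller, with Pfn1 (0.0403), Psmg1 (0.0413) and Atp5b (0.0424) nearest. The measure includes the spread between replicates, so its size should not be compared between members with unlike counts. Counts per library were 3724 to 6393 for Hist1h1c, 562 to 2568 for H1f0 and 79 to 428 for H1fx. Atp5b, a subunit of mitochondrial ATP synthase, went from 2355 ± 0.91 to 1556 ± 37.4 CPM with TSA in wild-type cells and from 2481 ± 106 to 1579.9 ± 70.3 CPM in TKO cells. By the same measure H1f0 and H1fx differed by 0.351 and Hist1h1d and Hist1h1t by 1.34, the most distant pair of members.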

How the data were processed

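The authors deposited a table that holds the raw count of each gene in 8 RNA-seq libraries, in featureCounts layout with exon coordinates and summed exon length per the file headers. Tools named in the submitters' processing notes are TopHat2 2.0.13, featureCounts 1.4.5-p1 and edgeR 3.22.3 with build mm10; strand and multi-mapping settings are not given in the sources used here. Library preparation used a directional kit with paired 51-base reads, per the labels' protocols. Counts were fitted with edgeR 4.0.16 in R 4.3.3 (TMM scaling, filterByExpr, glmQLFit and glmQLFTest, two-sided) on all 8 libraries with 1 mean per group, 4 residual degrees of freedom and a common biological coefficient of variation of 10.3%. Benjamini-Hochberg adjustment ran over 15822 genes, with calls below 0.05. Standard errors are the log2 fold change divided by the root of F, and intervals are 95%. For gene likeness, 0.5 was added to CPM before the log2. The edgeR script was tested on simulated counts. RNA levels of 2 libraries per group correlated at r = 0.991 to 0.994 over log2 CPM, and replicates of each group differed by more than counting noise (chi-square per degree of freedom 5.17 to 11.7). Alternatives were total counts or upper quartile scaling, DESeq2 1.42.0, no filter, a replicate block, only the groups compared, leaving out each library and, for the shares, other lengths. Members and gene lists were chosen with earlier results of these data known. Named genes are the members, Dnmt1, Dnmt3a and Dnmt3b, up to 4 called genes per list and comparison with the highest mean CPM, the 3 genes most like H1f0, H1fx and Hist1h1c, genes whose exons overlap a member, and germline linker histones.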

Additional observations from a re-analysis of the deposited data

How the results depend on the processing

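No called member value changed direction under any alternative. Signs turned among values that were not called, for example H1fx between genotypes in DMSO (0.12 with all libraries, -0.41 to 0.51 when 1 was left out), and no value that turned was called. Under each alternative with all 8 libraries at most 3 of the 48 member values crossed the threshold. Scaling to total counts moved the median of all genes with TSA by about 0.2 on the log2 scale (to 0.22 in wild-type and 0.19 in TKO cells). Upper quartile scaling moved it to 0.16 and 0.11. Replication-dependent genes had medians of -0.37 and -0.41 with total counts, still below 0 without any correction for that shift. Hist1h1e in wild-type cells lost its call with upper quartile scaling (adjusted p = 0.370), without a filter (0.0508), with only the 2 groups compared (0.0907) and in 5 of 8 leave-outs. Between genotypes in TSA, 2 members were called with DESeq2, without a filter, with a replicate block or with only the 2 groups compared. The replacement share was 1.68%, 5.88%, 2.71% and 9.04% as plain counts (WT DMSO, WT TSA, TKO DMSO, TKO TSA). Dividing the same counts by RefSeq lengths, an alternative chosen after seeing the data, gave 0.653%, 2.35%, 1.01% and 3.64%. Leaving out 1 library, members called ranged from 7 to 8 for TSA in wild type, 7 to 8 for TSA in TKO, 1 to 2 for genotype in DMSO, 0 to 2 for genotype in TSA, 7 to 8 for TKO TSA against WT DMSO and 0 to 1 for the interaction, and shares from 0.804 to 0.911%, 2.88 to 3.03%, 1.06 to 1.66% and 4.35 to 4.76%. Over all genes, leaving out 1 library gave 1458 to 3330 calls for genotype in DMSO (3221 with all libraries), 941 to 3443 for genotype in TSA (2910 with all) and 10 to 410 for the interaction, the fewest without TKO DMSO replicate 2, WT TSA replicate 1 and TKO DMSO replicate 2. With all libraries the interaction count was 213 in edgeR, 394 in DESeq2, 488 without a filter and 633 with the block. The cause of these changes was not tested.

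Same-numbered libraries correlated at r = 0.0586 to 0.366 in their deviations from group means, and nothing in the labels says that a number marks a shared day or culture. With a replicate block, Hist1h1t was called between genotypes in TSA (log2 fold change 0.66, adjusted p = 0.00396), so 2 members were called there, and 1 member, Hist1h1t, in the interaction (-0.91, adjusted p = 0.0334); Hist1h1e passed in TKO TSA against WT DMSO (-0.21, adjusted p = 0.0446). It changed no other member's call. H1fx and Hist1h1t, with as few as 79 and 83 counts in a library, have the widest intervals.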

Other observations

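Among the 14 tested linker histone chaperones and competitors, 3 were called between TKO and WT DMSO cells. Of all tested genes 20.4% were called there and 10.7% were lower in TKO. The count was not tested against these shares. All 3 were lower in TKO: Hmga2 at 6.48 ± 1.13 against 25.8 ± 7.55 CPM (SD, n = 2, log2 fold change -2.00 ± 0.28, edgeR adjusted p = 0.000782), Hmgn3 at 1.35 ± 0.558 against 7.09 ± 1.78 CPM (-2.40 ± 0.28, adjusted p = 0.000272) and Hmgn5 at 1.10 ± 0.197 against 3.38 ± 0.840 CPM (-1.61 ± 0.35, adjusted p = 0.00835). Hmga2 is an architectural protein that binds AT-rich DNA, and Hmgn3 and Hmgn5 are nucleosome-binding proteins known to compete with H1. With TSA, Hmgn3 reached 25.8 ± 1.81 CPM in wild-type and 23.0 ± 0.337 CPM in TKO cells, and its interaction was called (2.24 ± 0.34, adjusted p = 0.0182). Hmgn5 and Hmga2 rose with TSA in TKO cells (1.93, adjusted p = 0.000615, and 1.03, adjusted p = 0.0103), and in wild-type cells had log2 fold changes of 0.41 and -0.03 that did not pass; their interactions did not pass either (adjusted p = 0.141 and 0.227).

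Of 22 S phase genes, 3 were called between the genotypes in DMSO, all lower in TKO. Of all tested genes 20.4% were called there and 10.7% were lower, and the count was not tested against these shares. The median log2 fold change of the 22 was -0.009, beside -0.005 over all tested genes. Cdt1, which licenses replication origins, was at 119 ± 5.71 against 165 ± 14.0 CPM (log2 fold change -0.48, edgeR adjusted p = 0.00487), Gins2 at 38.8 ± 4.89 against 62.8 ± 4.398 CPM (-0.69, adjusted p = 0.00504) and Tk1 at 56.3 ± 2.25 against 79.0 ± 8.20 CPM (-0.49, adjusted p = 0.0106). Of 14 tested factors of histone pre-mRNA, Slbp was the 1 called in the same comparison, also lower in TKO (-0.37, edgeR adjusted p = 0.0162).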
